A study of Mus musculus with 12 samples.

Results

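The genes of the major histocompatibility complex (MHC) and of antigen processing were described in the jejunum of mice with cholestasis. They were every gene whose array symbol starts with H2- and 12 others named for their part in antigen presentation, B2m, Tap1, Tap2, Tapbp, Psmb8, Psmb9, Psmb10, Ciita, Nlrc5, Cd74, Ctss and Erap1. For each gene the probe set with a single symbol and the highest mean over the 12 arrays was read. This gave 41 genes, 29 with an H2 symbol, of the 19938 genes that have such a probe set. By role they were 20 class I genes of the K, Q, T and M regions, 9 genes of class I processing and control, 8 class II chains, 3 genes of class II processing and control, and H2-Ke6, a dehydrogenase gene named only for its place in the complex. The mice were male, 8 weeks old, of the inbred strains A/J and C57BL/6J (B6), and underwent common bile duct ligation (CBDL), which stops bile flow to the intestine, or a sham operation. Jejunum was taken on day 7. Total RNA was hybridized to Affymetrix arrays, 3 each for A/J CBDL, A/J sham, B6 CBDL and B6 sham, and signals are on a log2 scale, so that a difference of 1 is a 2-fold difference. The labels count arrays and do not name the animals behind them, so the p-values given here reflect variation between arrays, which may be technical.

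Class I molecules show peptides from inside the cell to CD8 T cells. The peptides are cut by the proteasome, in which the immunoproteasome subunits Psmb8, Psmb9 and Psmb10 replace the constitutive ones, carried into the endoplasmic reticulum by Tap1 and Tap2, trimmed by Erap1 and loaded with the help of tapasin (Tapbp) onto a heavy chain bound to B2m. Class II molecules are pairs of an α and a β chain that show peptides from outside the cell to CD4 T cells. They assemble on the invariant chain Cd74, which cathepsin S (Ctss) cuts, and H2-DM then exchanges the peptide. Nlrc5 and Ciita are the transcriptional coactivators of the class I and class II genes, and both are induced by interferon gamma. In the intestine epithelial cells express class I and several non-classical class I genes, and dendritic cells, macrophages and B cells carry much of the class II. A/J and B6 mice differ in MHC haplotype, so the alleles of these genes differ between them.

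Array medians ran from 5.36 to 5.51, and the lowest mean correlation of an array with the others was 0.970. The mean of 6 jejunal enterocyte markers was 12.4 to 12.7 in the 12 arrays. Nnt, part of which is deleted in C57BL/6J mice, was higher in A/J, with a difference of 1.04 (standard error, SE, 0.08, adjusted p = 2.29e-05), as the strain labels require. The 7 dimmest of the H2 genes, all of the M region, lay among the 30% dimmest probe sets (mean below 4.21). The classical class I genes H2-K1 and H2-D1 had no probe set of their own. They were read on 2 probe sets that list both genes, and these are among 8 shared H2 probe sets that were kept apart from the 41 genes.

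A/J and B6 jejunum differed in 6 of the 41 genes when the difference was averaged over both operations. H2-Ea, H2-T10, Tap2 and Psmb8 were higher in A/J, and H2-Q2 and H2-Ab1 were lower in A/J. H2-Ea, the α chain of the class II molecule I-E, was 25.1-fold higher, and H2-Q2, a class I gene of the Q region, was 14.2-fold lower. Of all 35556 probe sets, 4.63% were called in this comparison at an adjusted p under 0.05 (limma, Benjamini-Hochberg over all probe sets), 1.51% as higher in A/J and 3.12% as lower. Whether the probes bind the alleles of both strains equally was not measured, so less transcript and a poorer match to the probe cannot be told apart for any strain difference given here.

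Among the class II chains, H2-Ea gave the largest strain difference. Its log2 signals were 8.49, 8.66 and 9.24 in A/J CBDL and 8.84, 9.17 and 9.85 in A/J sham, against 4.14, 4.50 and 4.06 in B6 CBDL and 4.69, 4.72 and 4.22 in B6 sham. All 6 A/J arrays lay above all 6 B6 arrays. The gene is known to be silent in mice of the B6 haplotype, and RefSeq lists it in the B6 reference genome as a transcribed pseudogene. The difference was 4.65 (SE 0.19, adjusted p = 4.17e-07).

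H2-Ab1, the β chain of I-A, went the other way. It had 8.30, 7.95 and 8.53 in A/J CBDL and 8.21, 8.998 and 9.46 in A/J sham, against 9.17, 8.83 and 8.91 in B6 CBDL and 9.75, 9.48 and 9.99 in B6 sham. Within each operation the A/J arrays lay below the B6 arrays, and the averaged difference was -0.78 (SE 0.19, adjusted p = 0.0464). That call ended in 10 of 19 alternatives, 9 of them the removal of a single array (any but A/J sham replicates 1 and 3 and B6 sham replicate 2), with an adjusted p of 0.011 to 0.112 over the 19. H2-Aa, the α partner of H2-Ab1, had a difference of -0.24 (SE 0.13, adjusted p = 0.324) and H2-Eb1, the β partner of H2-Ea, one of -0.33 (SE 0.15, adjusted p = 0.246). Neither passed the test, so the chains of I-A and I-E are not shown to move as pairs between the strains. Of the 8 class II chains 1 was higher, 1 was lower and 6 did not pass. Ciita, Cd74 and Ctss, the genes of class II control and processing, had differences of 0.10, -0.03 and 0.10 and none passed.

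In class I processing the strains differed in 2 of 9 genes, and these lie next to each other on chromosome 17. Tap2, one chain of the peptide transporter, had 8.66, 8.50 and 8.60 in A/J CBDL and 8.51, 8.59 and 8.74 in A/J sham, against 7.47, 7.41 and 7.23 in B6 CBDL and 7.74, 7.54 and 7.91 in B6 sham. The A/J and B6 arrays did not overlap, and the difference was 1.05 (SE 0.08, adjusted p = 3.69e-05). Psmb8, the immunoproteasome subunit also called LMP7, had 8.72, 9.19 and 9.01 in A/J CBDL and 9.59, 9.56 and 9.48 in A/J sham, against 8.35, 8.45 and 8.07 in B6 CBDL and 8.84, 8.86 and 9.15 in B6 sham. The strains did not overlap within either operation, and the difference was 0.64 (SE 0.10, adjusted p = 0.00452). Tap1, the other chain of the transporter, and Psmb9, which lies beside it, had differences of -0.05 and 0.03 and did not pass.

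Of the 20 class I genes, which do not include the classical H2-K1 and H2-D1, 1 was higher in A/J, 1 was lower and 18 did not pass. H2-Q2 had 7.49, 7.14 and 7.60 in A/J CBDL and 7.64, 7.45 and 7.47 in A/J sham, against 11.07, 11.09 and 11.09 in B6 CBDL and 11.58, 11.53 and 11.41 in B6 sham. The gap between the lowest B6 array and the highest A/J array was wider than the spread of either strain, and the difference was -3.83 (SE 0.08, adjusted p = 2.82e-09). H2-T10 is a T region gene whose product is a ligand of some γδ T cells, and RefSeq lists it in the B6 genome as a transcribed pseudogene. It had 7.05, 7.14 and 7.33 in A/J CBDL and 7.77, 7.08 and 7.22 in A/J sham, against 5.72, 6.03 and 6.09 in B6 CBDL and 6.01, 6.34 and 6.12 in B6 sham. All A/J arrays lay above all B6 arrays, with a difference of 1.21 (SE 0.13, adjusted p = 0.000217). A second probe set, shared by H2-T9, H2-T22 and H2-T10, had the opposite sign, -1.58 (SE 0.10, adjusted p = 9.30e-06). It reads these genes together, and the part of H2-T10 in its sign was not tested. The direction given for H2-T10 rests on the 1 probe set that lists it alone.

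A further 3 shared probe sets differed between the strains. That of H2-T23, which encodes the non-classical molecule Qa-1, and the pseudogene H2-T-ps had a difference of -1.66 (SE 0.16, adjusted p = 0.000162), with 7.81, 7.93 and 8.08 in A/J sham against 9.67, 9.53 and 9.80 in B6 sham. Of the 2 probe sets shared by the classical genes, the one with H2-K1 listed first had a difference of -0.43 (SE 0.06, adjusted p = 0.00217) and the one with H2-D1 listed first one of 0.13 (SE 0.07, adjusted p = 0.355). Only the first passed. The probe set of H2-T3 and H2-T18, which encode the thymus leukemia antigen of the intestinal epithelium, differed by 0.26 (SE 0.06, adjusted p = 0.0331).

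**Figure D1:**
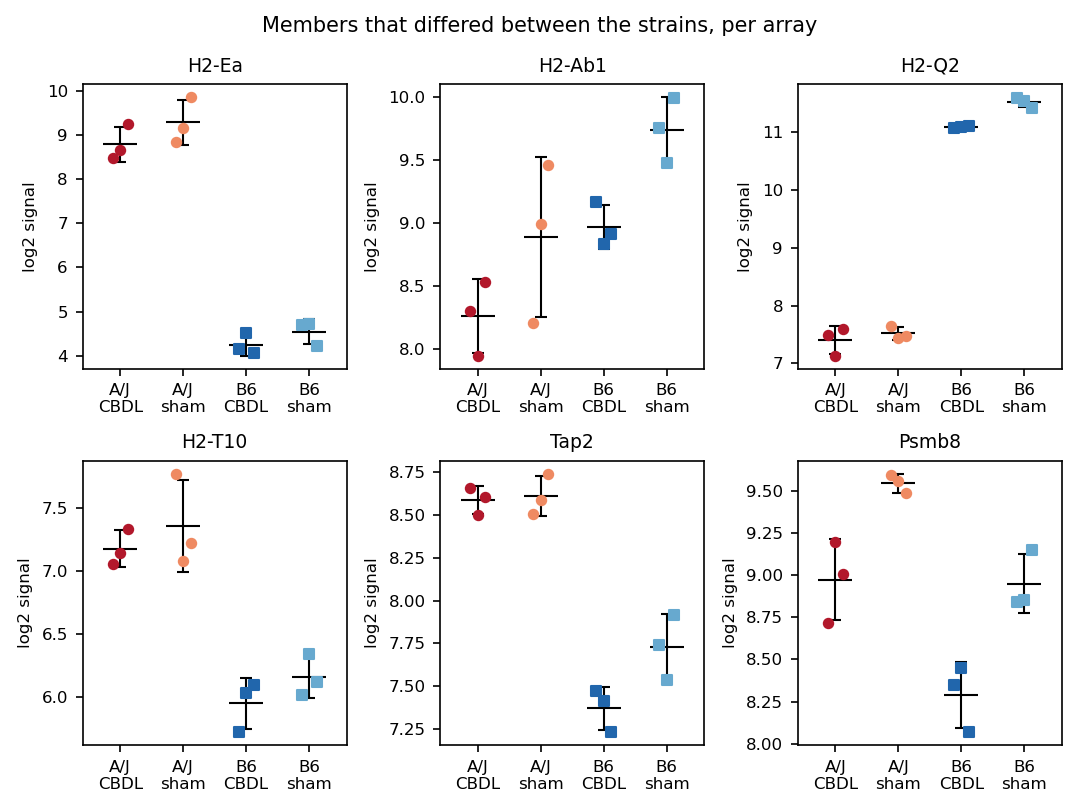
Log2 signal of 6 genes called in the strain comparison, 1 point for each array and 3 arrays for each group (x axis), with the mean and SD in black. H2-Ea, H2-T10 and Tap2 lie higher in all 6 A/J arrays, H2-Q2 lies lower in all of them (about 7.14 to 7.64 against 11.1 to 11.6 in B6), and Psmb8 and H2-Ab1 separate the strains within each operation.

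The strain differences were measured in both operations on separate arrays. In CBDL mice 4 genes were higher in A/J (H2-Ea, H2-T10, Tap2 and Psmb8) and 1 was lower (H2-Q2), where 1.78% of all probe sets were called, 0.562% as higher and 1.22% as lower. In sham mice 3 were higher (H2-Ea, H2-T10 and Tap2) and 1 was lower (H2-Q2), where 1.87% were called, 0.579% as higher and 1.29% as lower. Psmb8 had a difference of 0.68 in CBDL mice (SE 0.14, adjusted p = 0.0399) and of 0.60 in sham mice (SE 0.14, adjusted p = 0.0695), so only the first passed. That call ended in 11 of 20 alternatives, with an adjusted p of up to 0.129. Tap2 had 1.21 in CBDL and 0.88 in sham mice, and H2-Ea 4.56 and 4.74. Counting groups with no overlap between arrays, A/J lay above B6 in 7 genes in CBDL mice (10.4% of all probe sets did so) and in 7 in sham mice (9.15%). A/J lay below B6 in 3 genes in CBDL mice (11.3%) and in 4 in sham mice (9.53%).

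All 6 genes called between the strains lie in the complex on chromosome 17, where 34 of the 41 genes are. The other 7 genes (B2m, Ctss, Nlrc5, Psmb10, Erap1, Ciita and Cd74) lie on other chromosomes, and their differences ran from -0.15 to 0.10 with none called. With 4.63% of all probe sets called, 7 genes are too few for this to set them apart. Between the outermost H2 genes on chromosome 17 lie 124 other genes, with differences of -0.53 to 0.41. Of these 2 were higher in A/J and 5 lower, which is 5.65% and near the share of all probe sets. Btnl1, a butyrophilin-like gene of the intestinal epithelium, had the lowest p of the 124, with a difference of -0.41 and an adjusted p of 0.00468. Along the complex the called genes did not form a single run. Psmb8 and Tap2 stood between uncalled neighbours Tap1 and H2-Ob, and H2-Eb2 beside H2-Ea had a difference of 0.26 (SE 0.11, adjusted p = 0.242).

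**Figure D2:**
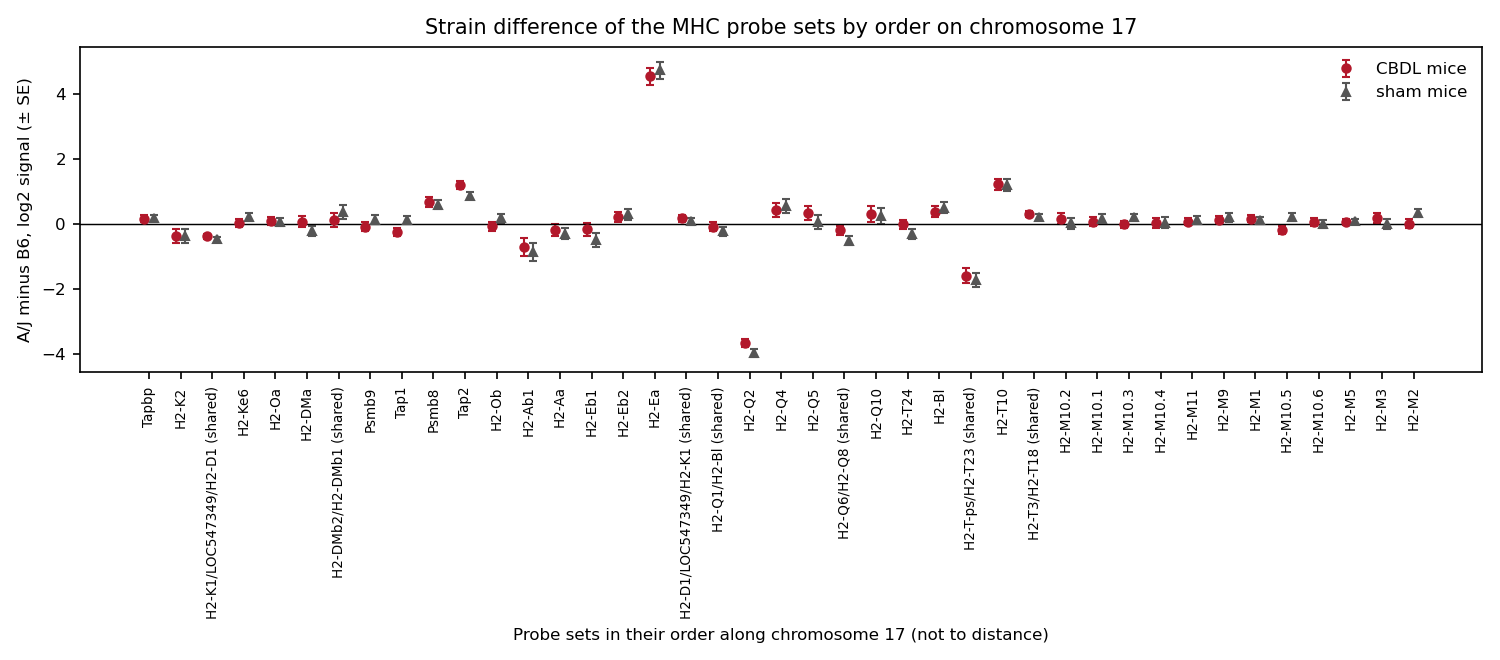
A/J minus B6 difference in log2 signal (y axis, with standard error) of the 34 genes and 7 shared probe sets on chromosome 17 in their order along the chromosome (x axis, not to distance; the probe set of H2-T9, H2-T22 and H2-T10 is not drawn), in CBDL mice (circles) and sham mice (triangles). H2-Ea stands at 4.56 and 4.74 and H2-Q2 at -3.67 and -3.99, and most other probe sets lie near 0.

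After CBDL the genes of antigen presentation had slightly lower signals in both strains, and 1 class I gene had a higher one. Averaged over the strains, 5 of the 41 genes fell (Psmb8, Psmb9, Erap1, Tapbp and H2-Aa) and 1 rose (H2-Q10). This is 14.6% of the genes, where 1.74% of all probe sets were called, 0.616% as lower and 1.12% as higher. The sign was negative in 38 of the 41 genes, with a median change of -0.22, against 52.9% of all probe sets and a median of -0.01. Of the 19938 genes read in the same way, 58.1% were negative, with a median of -0.02, and 2.42% were called. The changes were small, and of the 6 calls only that of Psmb8 held in all 19 alternatives. Leaving out 1 array at a time gave 1 to 6 called genes, and 3 or fewer without any array but A/J CBDL replicate 3 or A/J sham replicate 1. In these comparisons each strain is set against itself, so the alleles are the same on both sides. Because whole jejunum was measured, fewer cells that express a gene and less RNA in each cell cannot be told apart.

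Of the 9 genes that make, load or control class I peptides, 4 fell and 5 did not pass, with a median change of -0.32. Psmb8 had 8.72, 9.19 and 9.01 in A/J CBDL against 9.59, 9.56 and 9.48 in A/J sham, and 8.35, 8.45 and 8.07 in B6 CBDL against 8.84, 8.86 and 9.15 in B6 sham. In each strain all CBDL arrays lay below all sham arrays. Psmb8 fell by 0.62 on the log2 scale (SE 0.10, adjusted p = 0.0143), a signal 1.53-fold lower, with an adjusted p of 0.00249 to 0.0445 over the alternatives.

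Psmb9, the subunit also called LMP2, fell as well. Its signals were 8.25, 8.86 and 8.63 in A/J CBDL against 9.20, 9.22 and 9.11 in A/J sham, and 8.72, 8.74 and 8.53 in B6 CBDL against 9.04, 8.89 and 9.21 in B6 sham. The operations did not overlap in either strain. Psmb9 fell by 0.49 (SE 0.10, adjusted p = 0.0406), a call that ended in 12 of 19 alternatives (the replicate block and every single array left out but A/J CBDL replicate 2). Psmb10, the third inducible subunit, had 8.97, 9.53 and 9.45 in A/J CBDL against 10.22, 9.95 and 9.75 in A/J sham, and 9.36, 9.69 and 9.30 in B6 CBDL against 10.01, 9.68 and 10.08 in B6 sham. Its groups overlapped in B6 only, and its change of -0.56 (SE 0.13, adjusted p = 0.0592) did not pass. So 2 of the 3 inducible subunits passed, though the change of Psmb10 was larger than that of Psmb9. All 3 had a negative change with an unadjusted limma p under 0.05. The constitutive subunits that they replace, Psmb5, Psmb6 and Psmb7, had changes of -0.13 to -0.08, and 0 of 3 were called. Averaged over the strains, none of them had an unadjusted p under 0.05, where 14.1% of all probe sets did. In A/J alone their changes were -0.22 to -0.16, against -0.66 to -0.57 for the inducible subunits. There 1 of the 3 had an unadjusted p under 0.05, where 14.2% of all probe sets did. In B6 alone their changes were -0.08 to -0.004.

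Tapbp, the bridge between the transporter and the class I heavy chain, had 10.05, 9.86 and 10.09 in A/J CBDL against 10.24, 10.40 and 10.33 in A/J sham, and 9.72, 9.98 and 9.81 in B6 CBDL against 10.13, 10.12 and 10.20 in B6 sham. The arrays of the operations did not overlap in either strain. Tapbp fell by 0.32 (SE 0.07, adjusted p = 0.0467), and this call ended in 11 of 19 alternatives (the replicate block and every single array left out but A/J sham replicate 1 and B6 CBDL replicate 2). Erap1, which trims the peptides, had 8.70, 8.91 and 8.71 in A/J CBDL against 9.25, 9.19 and 9.16 in A/J sham, and 8.996, 9.09 and 8.86 in B6 CBDL against 9.23, 9.23 and 9.42 in B6 sham. It too separated the operations in both strains. Erap1 fell by 0.37 (SE 0.07, adjusted p = 0.0257), a call that ended in 8 of 19 alternatives. These were the replicate block and every single array left out but A/J CBDL replicate 2, A/J sham replicates 1 and 3, B6 CBDL replicate 2 and B6 sham replicate 2.

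B2m, the light chain that every class I molecule needs, did not overlap between the operations in either strain either. It had 12.29, 12.19 and 12.20 in A/J CBDL against 12.38, 12.60 and 12.61 in A/J sham, and 12.28, 12.50 and 12.40 in B6 CBDL against 12.66, 12.54 and 12.80 in B6 sham, a change of -0.29 (SE 0.07, adjusted p = 0.0871) that did not pass. The transporter genes had changes of -0.22 for Tap1 (SE 0.09, adjusted p = 0.268) and -0.19 for Tap2 (SE 0.08, adjusted p = 0.319). Tap1 had 7.66, 7.61 and 7.45 in A/J CBDL against 7.91, 8.08 and 7.93 in A/J sham with no overlap, and 8.000, 7.75 and 7.67 in B6 CBDL against 7.78, 7.72 and 8.05 in B6 sham, which overlapped. For Tap2 it was the B6 groups that did not overlap, and its A/J groups had means of 8.59 ± 0.08 after CBDL and 8.61 ± 0.12 after sham (SD, n = 3). Nlrc5, the class I coactivator, had 8.19, 7.71 and 7.90 in A/J CBDL against 7.57, 8.07 and 8.10 in A/J sham, and 7.93, 7.87 and 7.94 in B6 CBDL against 7.81, 7.99 and 7.85 in B6 sham. Its groups overlapped in both strains, and the change was 0.03 (SE 0.11, adjusted p = 0.945) with an interval of -0.21 to 0.27 at 95% confidence. These values are from the brightest of 19 probe sets for Nlrc5. The other probe sets had averaged changes of -0.26 to 0.03, most of them negative, and none was called.

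Promoter sequences from RefSeq (GRCm38.p6, a B6 genome, 250 bases before to 50 after each start) were at hand for 30 of the 41 genes. The core of the interferon-stimulated response element, GAAA, any 2 bases and GAAA, searched on both strands, stood in 3 of them, Erap1, B2m and Ctss, and in 3.44% of the 32851 promoter windows. They are shown for the 2 genes of class I processing, with the matching letters in capitals, since both separated the operations in each strain. The motif overlaps no other motif searched in these 2 stretches.
Erap1 (chr13:74639837-74639870, plus strand): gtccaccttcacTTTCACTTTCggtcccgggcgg
B2m (chr2:122147536-122147569, plus strand): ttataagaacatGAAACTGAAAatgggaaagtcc
In Erap1 the match is on the opposite strand and spans the start, and in B2m it begins 139 bases before it. The windows of Psmb8, Psmb9, Psmb10, Tap1 and Tapbp did not hold these letters. Psmb9 and Tap1 are read in opposite directions from neighbouring starts, and their windows share most of their bases.

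The class II chains all had negative changes in both strains, with a median of -0.44 over the 8 genes, and 1 of them, H2-Aa, passed. H2-Aa had 9.09, 9.22 and 9.60 in A/J CBDL against 9.45, 9.89 and 10.12 in A/J sham, and 9.69, 9.38 and 9.37 in B6 CBDL against 10.10, 10.09 and 10.16 in B6 sham. The B6 groups did not overlap and the A/J groups did. H2-Aa fell by 0.57 (SE 0.13, adjusted p = 0.0499), close to the threshold, and the call ended in 11 of 19 alternatives (the replicate block and every single array left out but A/J CBDL replicate 3 and A/J sham replicate 1).

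None of the other 7 class II chains passed. H2-Ab1, whose signals are given above, had a change of -0.70 (SE 0.19, adjusted p = 0.119), larger than that of H2-Aa but with a wider spread. H2-Eb1 had 8.08, 8.33 and 8.70 in A/J CBDL against 8.42, 8.69 and 9.19 in A/J sham, and 8.77, 8.42 and 8.42 in B6 CBDL against 9.35, 9.07 and 9.34 in B6 sham, a change of -0.55 (SE 0.15, adjusted p = 0.102). H2-DMa, a chain of the peptide exchange factor, had a change of -0.47 (SE 0.12, adjusted p = 0.0796), and the probe set shared by its partners H2-DMb1 and H2-DMb2 one of -0.60 (SE 0.16, adjusted p = 0.106). H2-Ab1, H2-Eb1 and H2-DMa did not overlap between the operations in B6 and overlapped in A/J. H2-Ea, H2-Eb2, H2-Oa and H2-Ob had changes of -0.40, -0.11, -0.11 and -0.28. H2-Oa and H2-Ob form H2-DO, an inhibitor of H2-DM.

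Cd74, the invariant chain, had 8.54, 8.83 and 9.28 in A/J CBDL against 9.14, 9.51 and 9.78 in A/J sham, and 9.07, 8.76 and 8.78 in B6 CBDL against 9.66, 9.34 and 9.65 in B6 sham. As for H2-Aa, H2-Ab1 and H2-Eb1, the B6 groups were apart and the A/J groups overlapped. The change was -0.64 (SE 0.14, adjusted p = 0.0561), just outside the threshold. Ciita, the class II coactivator, had a change of -0.23 (SE 0.10, adjusted p = 0.336) and Ctss one of -0.20 (SE 0.08, adjusted p = 0.304). Ciita had 5.21, 5.39 and 5.69 in A/J CBDL against 5.46, 5.55 and 5.71 in A/J sham, and 5.29, 5.44 and 5.01 in B6 CBDL against 5.53, 5.52 and 5.66 in B6 sham. Ctss had 10.66, 10.24 and 10.46 in A/J CBDL against 10.42, 10.57 and 10.68 in A/J sham, and 10.16, 10.35 and 10.26 in B6 CBDL against 10.54, 10.61 and 10.50 in B6 sham. Both separated the operations in B6 and overlapped in A/J.

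The promoters of 5 class II chains are shown because these genes share a pair of elements that the RFX and NF-Y factors bind. These factors recruit Ciita. The start of the X box (GCAAC) and the core of the Y box (GATTGG) are in capitals.
H2-Aa (chr17:34287859-34287912, minus strand): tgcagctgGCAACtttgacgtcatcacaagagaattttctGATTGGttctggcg
H2-Eb1 (chr17:34305768-34305820, plus strand): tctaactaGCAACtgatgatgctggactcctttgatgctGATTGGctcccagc
H2-Eb2 (chr17:34325535-34325587, plus strand): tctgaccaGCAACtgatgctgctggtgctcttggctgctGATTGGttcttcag
H2-Oa (chr17:34092295-34092348, plus strand): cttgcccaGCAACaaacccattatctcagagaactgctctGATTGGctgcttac
H2-Ob (chr17:34238810-34238860, plus strand): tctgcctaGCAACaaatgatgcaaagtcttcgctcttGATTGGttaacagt
In all 5 the pair stands 24 to 27 bases apart, and GCAAC followed by GATTGG at 20 to 30 bases, searched on both strands, occurs in 0.204% of the 32851 windows. GATTGG alone occurs in 16.1% and GCAAC alone in 35.2%. H2-DMa, the sixth class II chain with an entry, did not hold the pair. The shared letters go with changes that ranged from -0.57 for H2-Aa to -0.11 for H2-Oa.

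Leukocyte, dendritic cell and macrophage, and T and NK cell markers had lower means after CBDL in the B6 arrays, and B cell markers did not separate there. Within B6 limma called none of the 3, 8 and 7 markers of these lists, and 3, 2 and 7 of them had an unadjusted p under 0.05, where 7.64% of all probe sets did. The mean of the 3 leukocyte markers (Ptprc, Laptm5 and Coro1a) was 7.62, 7.53 and 7.88 in A/J CBDL against 7.50, 7.63 and 8.21 in A/J sham, and 7.41, 7.26 and 7.25 in B6 CBDL against 7.88, 7.75 and 7.99 in B6 sham. It separated the operations in B6 and not in A/J. The mean of 8 dendritic cell and macrophage markers was 5.74 to 6.10 in A/J CBDL against 5.81 to 6.16 in A/J sham, and 5.74 to 5.81 in B6 CBDL against 6.02 to 6.04 in B6 sham. None of the 8 was called by limma, with a median change of -0.18 over both strains and 2 at an unadjusted p under 0.05. The mean of 7 T and NK cell markers was 7.00 to 7.02 in A/J CBDL against 6.94 to 7.14 in A/J sham, and 6.92 to 7.03 in B6 CBDL against 7.59 to 7.94 in B6 sham. Averaged over both strains, Gzmb fell by 0.78 (SE 0.13, adjusted p = 0.0146) and Nkg7 by 0.53 (SE 0.09, adjusted p = 0.0181). In A/J alone 0 of the 7 were called and 4 had a positive change, while in B6 all 7 were negative. The limma interaction called 0 of the 7, and 5 had an unadjusted p under 0.05, where 6.88% of all probe sets did. The mean of 4 B cell markers was 4.15 to 4.42 in A/J CBDL against 4.30 to 5.31 in A/J sham, and 4.06 to 4.18 in B6 CBDL against 3.94 to 4.28 in B6 sham. None of the 4 was called over both strains (0 at an unadjusted p under 0.05), and their median was -0.42 in A/J and -0.08 in B6. Of 6 enterocyte markers, Lct fell by 0.47 averaged over both strains (SE 0.09, adjusted p = 0.0303) and 5 did not pass. The median change of the 6 was -0.14, with 5 negative. In limma 3 had an unadjusted p under 0.05, where 14.1% of all probe sets did. In A/J alone 4 of the 6 did so and in B6 alone 1. The part of these cells in the changes of the class II and class I processing genes was not tested.

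**Figure D3:**
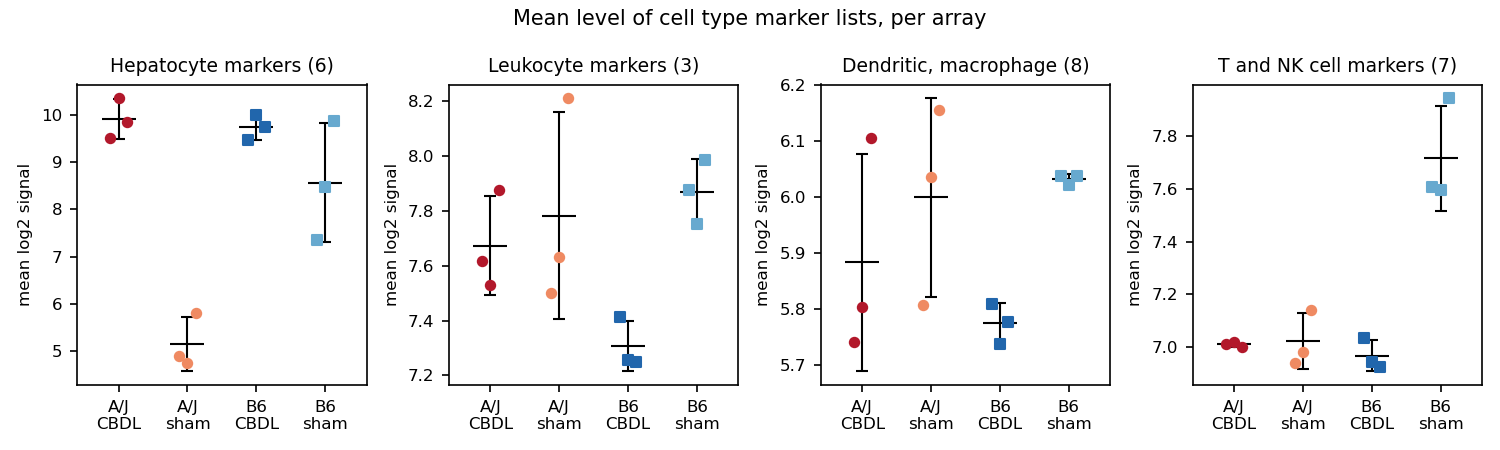
Mean log2 signal of 4 lists of cell type markers (y axis) in each array by group (x axis), with the group mean and SD in black and the number of markers in each title. Leukocyte and T and NK cell markers lie lower in B6 CBDL than in B6 sham, and hepatocyte markers lie lowest in A/J sham (4.75 to 5.81).

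Of the 20 class I genes, which do not include the classical H2-K1 and H2-D1, 1 rose, 0 fell and 19 did not pass. H2-Q10, a secreted class I molecule made chiefly by the liver, had 7.17, 7.83 and 6.86 in A/J CBDL against 6.46, 6.42 and 6.51 in A/J sham, and 6.68, 7.07 and 7.20 in B6 CBDL against 6.34, 5.82 and 6.53 in B6 sham. All CBDL arrays lay above all sham arrays in both strains. H2-Q10 rose by 0.79 (SE 0.17, adjusted p = 0.0488), and the call ended in 13 of 19 alternatives, which were the replicate block, quantile normalization, subtraction of each array's median and every single array left out but A/J CBDL replicate 3 and B6 sham replicate 3. It was the only one of the 41 genes whose CBDL arrays lay above its sham arrays, in A/J (8.04% of all probe sets did so) and in B6 (7.89%).

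Hepatocyte markers rose in the same arrays. The mean of 6 of them (Alb, Ahsg, Apoh, Cyp2e1, Fgb and Ttr) was 9.52, 10.35 and 9.86 in A/J CBDL against 4.89, 4.75 and 5.81 in A/J sham, and 9.47, 9.99 and 9.74 in B6 CBDL against 7.36, 8.47 and 9.87 in B6 sham. All 6 were called higher averaged over the strains, with a median change of 3.02. In A/J alone 6 of 6 were called and in B6 alone 0 of 6, where the sham arrays ranged from 7.36 to 9.87. Azgp1, a secreted class I-like protein that the liver also makes, had 6.62, 7.33 and 7.25 in A/J CBDL against 4.70, 4.67 and 4.47 in A/J sham, and 7.07, 7.62 and 7.29 in B6 CBDL against 4.63, 5.87 and 7.52 in B6 sham. It rose by 1.89 (SE 0.38, adjusted p = 0.0355). The B6 sham array with the highest hepatocyte mean, replicate 3, was also the highest of its group for Azgp1 and H2-Q10. Its hepatocyte mean was within the range of the B6 CBDL arrays, while its H2-Q10 signal of 6.53 was below all of theirs. Replicate 2 had a higher hepatocyte mean than replicate 1 (8.47 against 7.36) and a lower H2-Q10 signal (5.82 against 6.34). The A/J sham arrays had the same order for the hepatocyte mean and H2-Q10. A/J CBDL replicate 2 was the highest of its group for both, and B6 CBDL replicate 1 the lowest of its group for both. The other arrays of these CBDL groups stood in opposite order. Without B6 sham replicate 3 H2-Q10 had a change of 0.86 (adjusted p = 0.0498). The part of hepatocyte RNA in the H2-Q10 change was not tested.

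H2-Ke6 had a change of 0.03 (SE 0.09, adjusted p = 0.932) and is no class I or class II gene. The remaining 19 class I genes had changes of -0.40 to -0.02. The lowest was that of H2-Bl, a class I gene that RefSeq lists as a transcribed pseudogene in the B6 genome, with 9.18, 8.87 and 8.56 in A/J CBDL against 9.33, 9.41 and 9.26 in A/J sham, and 8.22, 8.54 and 8.69 in B6 CBDL against 8.94, 8.70 and 8.84 in B6 sham. The groups did not overlap in either strain, and the change of -0.40 (SE 0.11, adjusted p = 0.125) did not pass. H2-Q2, which separated the strains, had a change of -0.27 (SE 0.08, adjusted p = 0.168), and H2-M3, which presents formylated bacterial peptides, one of -0.17 (SE 0.11, adjusted p = 0.52). The 7 dim genes of the M region had changes of -0.26 to -0.03.

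All 8 shared probe sets had negative changes in both strains, and 1 passed. That of H2-T3 and H2-T18 had 10.08, 9.998 and 9.97 in A/J CBDL against 10.40, 10.38 and 10.37 in A/J sham, and 9.62, 9.83 and 9.69 in B6 CBDL against 10.23, 10.06 and 10.20 in B6 sham. The operations did not overlap in either strain. It fell by 0.41 (SE 0.06, adjusted p = 0.00921). The thymus leukemia antigen it measures is the ligand of CD8αα on lymphocytes within the epithelium. The classical genes, on the probe set that lists H2-K1 first, had 11.36, 11.29 and 11.29 in A/J CBDL against 11.46, 11.53 and 11.46 in A/J sham, and 11.63, 11.81 and 11.66 in B6 CBDL against 12.02, 11.84 and 12.01 in B6 sham. They were lower in every CBDL array than in every sham array of the strain, yet the change of -0.21 (SE 0.06, adjusted p = 0.129) did not pass. The probe set that lists H2-D1 first had 10.82, 10.44 and 10.80 in A/J CBDL against 10.88, 11.01 and 10.88 in A/J sham, and 10.50, 10.57 and 10.45 in B6 CBDL against 10.87, 10.80 and 10.84 in B6 sham. Again no CBDL array reached a sham array, and the change was -0.28 (SE 0.07, adjusted p = 0.102).

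The upstream stretch of class I genes is shown for H2-Q10, which rose, beside 4 class I genes whose probe sets did not pass. Capitals mark AGTTTCACT, the interferon-response letters that all 5 share, and the core of the κB site, GGGATTCCC, where it occurs.
H2-Q10 (chr17:35469906-35469948, plus strand): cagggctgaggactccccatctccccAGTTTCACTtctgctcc
H2-Q4 (chr17:35379436-35379478, plus strand): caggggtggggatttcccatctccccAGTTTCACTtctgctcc
H2-Q6 (chr17:35424670-35424712, plus strand): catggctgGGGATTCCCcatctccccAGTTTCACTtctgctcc
H2-K1 (chr17:34000423-34000465, minus strand): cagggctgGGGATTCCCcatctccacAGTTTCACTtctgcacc
H2-D1 (chr17:35262916-35262958, plus strand): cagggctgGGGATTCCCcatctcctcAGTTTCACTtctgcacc
The κB letters in this exact form stand in H2-Q6, H2-K1 and H2-D1 and not in the H2-Q10 or H2-Q4 stretch. Other forms of the κB site were not searched, so a stretch without capitals is not shown to lack one. Searched on both strands, the exact κB letters occur in 0.353% of the 32851 windows and AGTTTCACT in 0.301%. The 2 motifs do not overlap. H2-Q4 had a change of -0.08 (SE 0.15, adjusted p = 0.872), and H2-Q6, read only with H2-Q8, one of -0.25 (SE 0.10, adjusted p = 0.291).

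**Figure D4:**
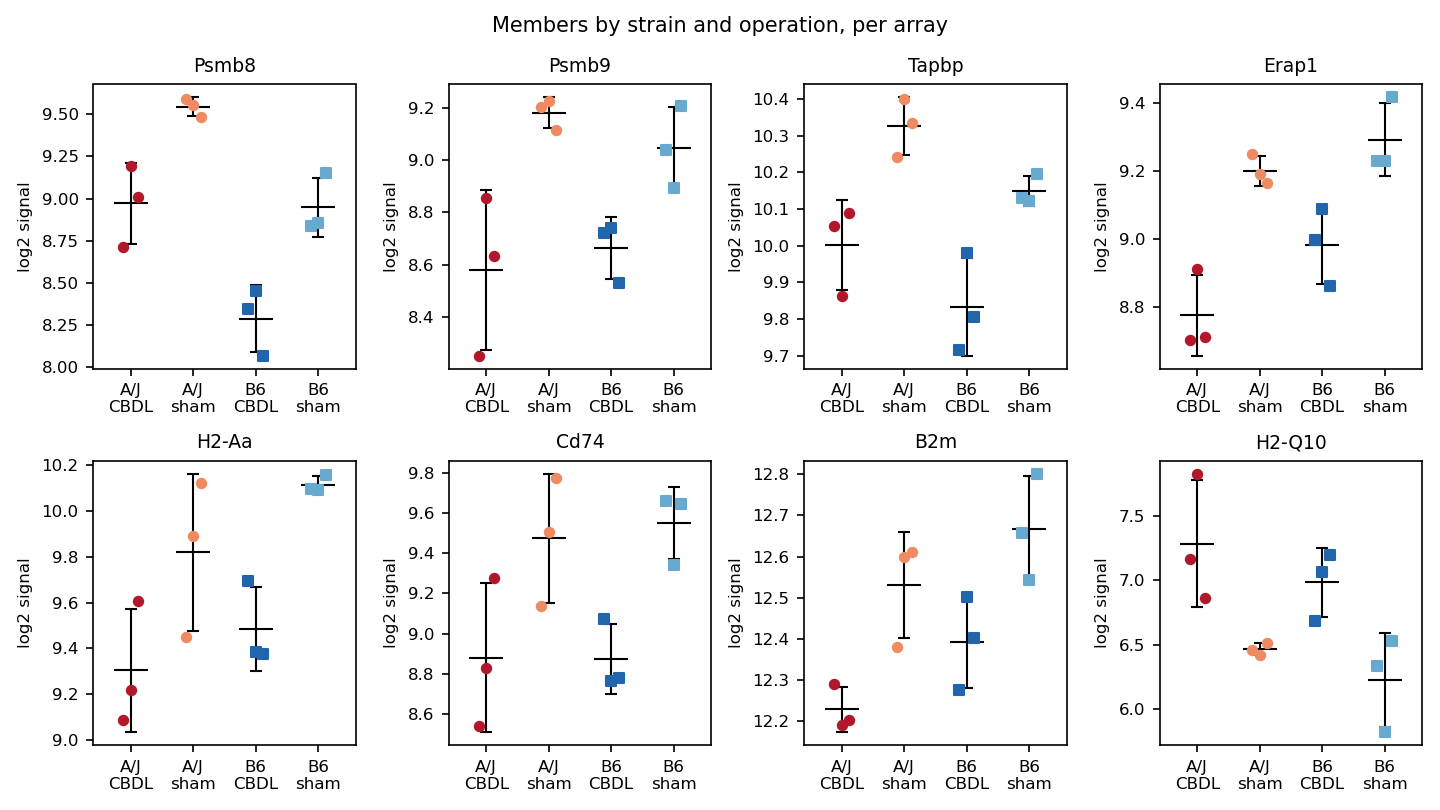
Log2 signal of 8 genes (y axis) in each of the 12 arrays by group (x axis), with the group mean and SD in black. Psmb8, Psmb9, Tapbp, Erap1 and B2m lie lower in every CBDL array than in every sham array of the same strain. H2-Aa and Cd74 do so in B6, while in A/J their arrays overlap with lower CBDL means (changes of -0.52 and -0.59). H2-Q10 lies higher in CBDL arrays of both strains.

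Within each strain alone no gene passed in the main fit. In A/J 0 of the 41 genes were called by limma, where 0.818% of all probe sets were, and 16 had an unadjusted p under 0.05, as 14.2% of all probe sets did. In B6 0 were called, where 0.0534% were, and 17 had an unadjusted p under 0.05, as 7.64% of all probe sets did. With array weights, 5 genes were called in A/J (Erap1, H2-M10.3, Psmb8, Psmb9 and Tap1). Where only probe sets with 1 gene symbol were tested, 3 were called in A/J (Erap1, Psmb8 and Psmb9) and 1 in B6 (Psmb8). Of the 41 genes the study, with its own processing, lists Psmb9 and Erap1 as lower in A/J after CBDL. It also lists H2-Q1 and Tapbpl, which are not among the 41, as lower in A/J. The CBDL arrays lay below all sham arrays in 15 genes in A/J (9.07% of all probe sets) and in 17 in B6 (7.62%). They did so in both strains in 6 genes, Psmb8, Psmb9, Tapbp, Erap1, B2m and H2-Bl, where 1.27% of all probe sets did. The change was negative in both strains in 36 of the 41 genes, where this held for 30.1% of all probe sets. Without the 30% dimmest probe sets it held for 30 of 34 genes, and for 34.0% of the 15321 genes read in the same way.

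The difference in response between the strains was tested as an interaction. Of the 41 genes 0 were called by limma, where 0.0366% of all probe sets were, and 1 (H2-M10.5) had an unadjusted p under 0.05, as 6.88% of all probe sets did. Tap1 and Tap2, the 2 chains of 1 transporter, had the next lowest p-values and opposite signs. Tap1 had -0.40 in A/J and -0.04 in B6, an interaction of -0.36 (SE 0.17, adjusted p = 0.744). Tap2 had -0.02 in A/J and -0.36 in B6, an interaction of 0.33 (SE 0.16, adjusted p = 0.747). For Psmb8 the interaction was 0.09, with an interval of -0.36 to 0.53, and for H2-Aa it was 0.12, with an interval of -0.44 to 0.67 (95% confidence). The interval for H2-Aa takes in strain differences as large as its change of -0.57, and that for Psmb8 does not reach the size of its change of -0.62.

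**Figure D5:**
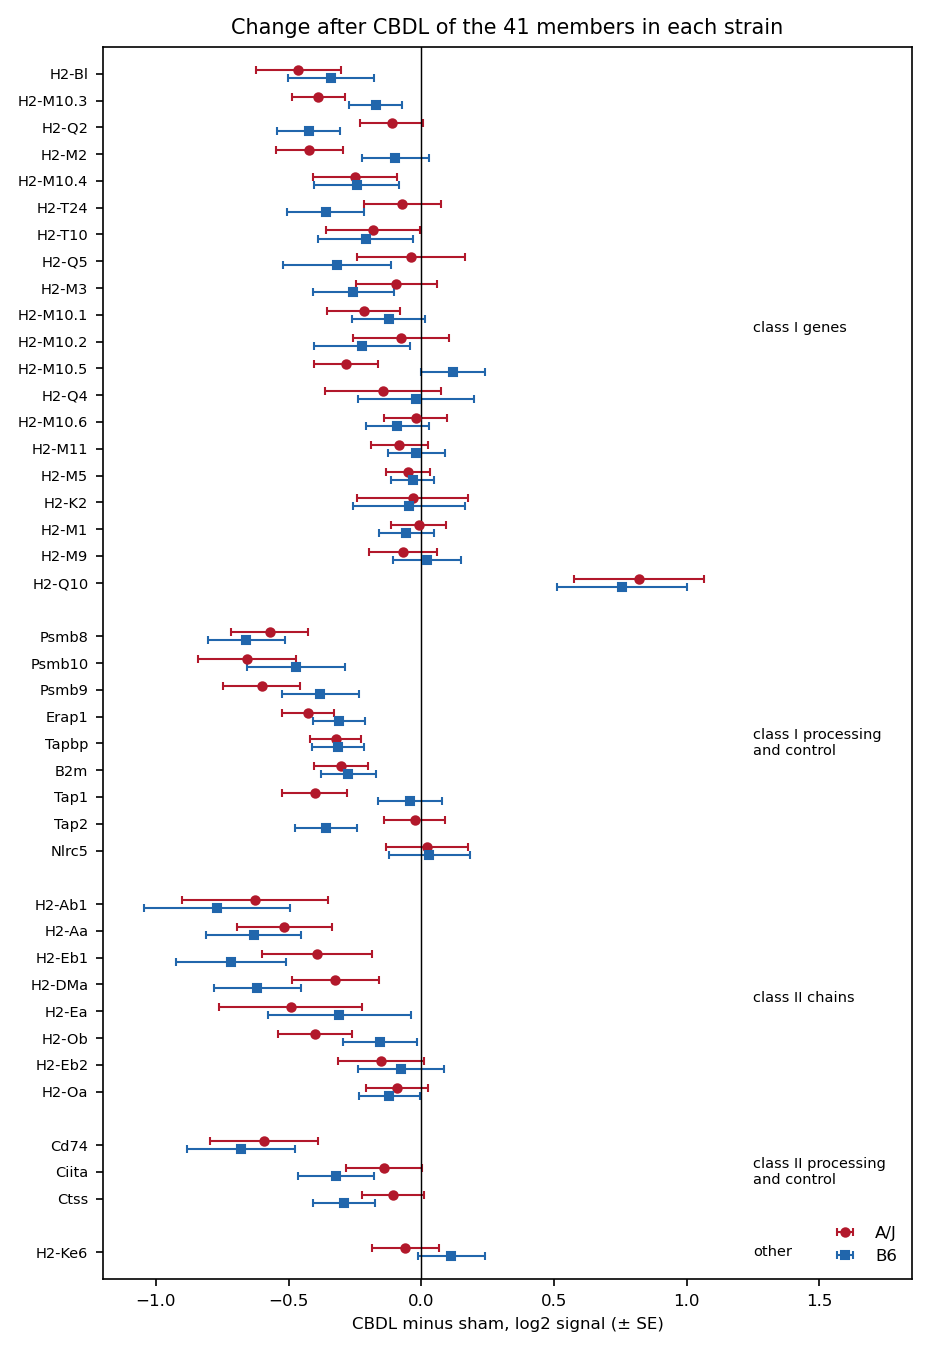
CBDL minus sham change in log2 signal (x axis, with standard error) of the 41 genes by role (y axis), in A/J (circles) and B6 (squares). Nearly all points lie left of 0, and H2-Q10 stands at 0.82 in A/J and 0.76 in B6.

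The wider pathway was read on lists of genes outside the 41. Of 10 genes of class I loading and trimming measured, 2 fell and 8 did not pass. Tapbpl, a tapasin-related peptide editor, had 6.95, 7.36 and 7.21 in A/J CBDL against 7.68, 7.93 and 7.66 in A/J sham, and 7.13, 7.09 and 6.86 in B6 CBDL against 7.49, 7.18 and 7.49 in B6 sham. It fell by 0.47 (SE 0.10, adjusted p = 0.039). Psme2, a subunit of the proteasome activator PA28 that interferon gamma induces, had 9.89, 10.29 and 10.09 in A/J CBDL against 10.54, 10.54 and 10.45 in A/J sham, and 9.90, 10.07 and 9.97 in B6 CBDL against 10.32, 10.27 and 10.37 in B6 sham. Both genes separated the operations in each strain, and Psme2 fell by 0.38 (SE 0.07, adjusted p = 0.0306). The median over the 10 was -0.11.

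None of the 8 genes of class II processing, the 11 transcription regulators of MHC genes, the 11 genes of interferon gamma signaling or the 7 costimulatory genes was called by limma in this comparison. Their medians were -0.01, -0.05, -0.04 and -0.14, and 2, 3, 2 and 2 of them had an unadjusted p under 0.05, where 14.1% of all probe sets did. Of 8 class I-like genes outside the complex, Azgp1 was the only one called. Between the strains Ctsh, a cathepsin, was lower in A/J, with a difference of -0.41 (SE 0.08, adjusted p = 0.0129), and Icosl, a costimulatory ligand, was higher, with 0.42 (SE 0.10, adjusted p = 0.0403).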

How the data were processed

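The authors deposited log2 signals of 35556 probe sets for 12 Affymetrix mouse gene arrays. Per the labels these are RMA values (background correction, quantile normalization and summary over probes) from Affymetrix Expression Console, with versions not given in the sources used here. Methods of the study name GCRMA and another array type, and the labels were followed. RMA draws the arrays to 1 distribution and compresses large changes. Precision is limited by having 3 arrays a group. Values ran from 1.57 to 14.4.

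Gene names came from the platform table. It gives 1 symbol to 21789 probe sets, several to 1621 and none to 12146. The 41 genes, the gene lists and the rule for values by array (the 12 genes without an H2 symbol, the main class II chains, H2-K1 and H2-D1, and called genes by role) were chosen with earlier results of these data known.

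A model with 1 mean for each of the 4 groups was fitted to all probe sets with limma 3.58.1 in R 4.3.3, and 7 comparisons were tested with moderated statistics and Benjamini-Hochberg adjustment over all probe sets. Genes were called at an adjusted p under 0.05. The steps were tested on simulated data. Groups were said not to overlap where every array of one lay beyond every array of the other. Promoters were RefSeq windows of 300 bases on GRCm38.p6. Motifs were matched exactly on both strands, and 11 of the 41 genes had no entry. Figures were drawn with matplotlib 3.10.9.

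Replicate numbers are shared between groups, but same-numbered arrays did not deviate together (correlations of -0.31 to 0.36, above 0.1 in 2 of 18 pairs), so they were not treated as pairs. Alternatives were a fit of only the arrays compared, removal of the 30% dimmest probe sets, only probe sets with 1 symbol, quantile normalization, subtraction of array medians, a trended robust prior, array weights, a replicate block, a minimum fold of 1.5, the dimmest probe set of a gene, and removal of each array.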

Additional observations from a re-analysis of the deposited data

How the results depend on the processing

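With 3 arrays a group, the smallest change of the 41 genes called after CBDL was that of Tapbp (-0.32), and levels of alleles that the probes match poorly were not measured. Between the strains, leaving out 1 array gave 5 to 7 called genes averaged over the operations, 4 to 5 in CBDL mice and 4 to 5 in sham mice, and array weights gave 7 in sham mice. For CBDL against sham averaged over the strains, 6 genes were called, against 13 where only probe sets with 1 gene symbol were tested, 14 with array weights and 2 with a fold of at least 1.5. With the replicate block 1 was called (Psmb8), and the block moved no other count by more than 1.5 times, though it ended the call of Psmb8 between the strains in CBDL mice (adjusted p = 0.0787). That call ended in 11 of 20 alternatives (adjusted p 0.0151 to 0.129), which were the block, the fit of only the arrays compared and every single array left out but A/J CBDL replicate 1, A/J sham replicate 1 and B6 sham replicate 3. The H2-T10 call in sham mice ended in the fit of only the arrays compared (adjusted p = 0.0631). Leaving out 1 array gave 1 to 6, with 1 without A/J CBDL replicate 1, A/J sham replicate 2, B6 CBDL replicate 3 or B6 sham replicate 1, and 2 or 3 without A/J CBDL replicate 2, A/J sham replicate 3, B6 CBDL replicates 1 and 2 or B6 sham replicates 2 and 3. Psmb8 was called in each of these. In A/J alone 3 genes were called with 1-symbol probe sets and 5 with array weights, in B6 alone 1 with 1-symbol probe sets, and leaving out 1 array gave 0 to 0 in either strain and for the interaction. The fits of 1-symbol probe sets adjust over fewer tests, and for the other settings the cause was not tested. A fit of only the arrays compared could not be applied to averaged comparisons or the interaction. Between 37 and 39 of the 41 genes had a negative averaged change under the alternatives.

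Of 72 values of single genes, 64 kept their direction, and 17 of 1415 alternatives reversed one of the other 8, none of which had passed. The Nlrc5 change averaged over the strains turned to -0.023 with array weights and ran from -0.058 to 0.082 with each array left out, negative without A/J CBDL replicate 1 or A/J sham replicate 1. In A/J it turned to -0.0071 with quantile normalization, -0.025 with medians subtracted and -0.10 with array weights, and ran from -0.15 to 0.13 with each array left out, and in B6 from -0.0070 to 0.085. The A/J change of H2-T10 turned to 0.046 with array weights. With each array left out it ran from -0.32 to 0.024, positive without A/J sham replicate 1. The A/J changes of Tap2, Ctss and H2-Q2 ran from -0.077 to 0.039, from -0.21 to 3e-04 and from -0.21 to 0.024, positive without A/J CBDL replicate 2, and for Tap2 also without A/J sham replicate 3. The B6 change of Tap1 ran from -0.14 to 0.060, positive without B6 CBDL replicate 3 or B6 sham replicate 3. Quantile normalization and median subtraction moved the median of all probe sets by under 0.1 in every comparison.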
